A study of Mus musculus with 6 samples.

Results

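Mixl1, Nkx1-2, Gsc, Evx1 and Lhx1 are homeobox genes, each encoding a transcription factor that binds DNA through a homeodomain, and all are known from the primitive streak of the mouse embryo or from the caudal epiblast beside it. The members were taken by gene symbol: every probe set that the array's annotation gives to 1 of the 5 genes. This gave 8 probe sets of the 45101 on the array, 1 each for Mixl1, Gsc and Evx1, 2 for Lhx1 and 3 for Nkx1-2. They are 5 of 18193 genes with a probe set of their own symbol and 5 of the 12285 tested.

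The arrays came from mouse E14 embryonic stem (ES) cells of the 129P2/OlaHsd background, a line that carries a Venus reporter of Msgn1, a gene of the presomitic mesoderm. The cells were differentiated as a monolayer in serum medium with 0.5% DMSO, 10 ng/mL R-spondin3, which enhances responses to Wnt, and 200 ng/mL of the BMP antagonist Noggin, and cells positive for Venus were collected by sorting at day 3 or day 4. Line, reporter, medium and gate were thus the same for both groups, which differed by 1 day of culture, and each day had 3 arrays labelled as biological replicates. The labels do not say whether replicates came from separate cultures. The p-values set the difference between days against the spread within days, which need not be that of separate cultures. Undifferentiated or reporter-negative cells are not part of these arrays. Signals are linear intensities, in the arbitrary units of the array, and can be compared between arrays for 1 probe set but not between probe sets.

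In the gastrulating embryo, cells of the epiblast pass through the primitive streak to become mesoderm and endoderm. Nodal and Wnt signals maintain the streak, and homeobox genes divide it: Mixl1 marks streak cells and nascent mesendoderm, Evx1 is strongest in the proximal, posterior streak, and Gsc and Lhx1 are genes of the anterior streak and organizer. Nkx1-2 marks the caudal epiblast, whose cells feed the neural tube and the presomitic mesoderm during axis elongation. The comparison asks how far these genes changed over 1 day within cells of the same reporter gate.

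The sequences just upstream of the genes show how their promoters compare between members whose signals fell and Lhx1, whose signal did not pass the test. RefSeq's promoter table for GRCm38.p6 matched 4 of the 5 genes, all but Mixl1. The 250 bases before the annotated start are printed for the 2 genes with the largest falls and a matched promoter, and for Lhx1, 5′ to 3′ on the strand of the gene, with each CpG dinucleotide, the site of DNA methylation, in capitals.
Nkx1-2 chr7:132599638-132599887 (- strand): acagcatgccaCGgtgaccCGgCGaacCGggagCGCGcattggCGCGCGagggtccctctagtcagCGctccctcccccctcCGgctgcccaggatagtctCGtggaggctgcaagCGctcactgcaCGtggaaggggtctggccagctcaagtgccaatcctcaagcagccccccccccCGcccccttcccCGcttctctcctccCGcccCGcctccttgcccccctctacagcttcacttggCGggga
Gsc chr12:104473237-104473486 (- strand): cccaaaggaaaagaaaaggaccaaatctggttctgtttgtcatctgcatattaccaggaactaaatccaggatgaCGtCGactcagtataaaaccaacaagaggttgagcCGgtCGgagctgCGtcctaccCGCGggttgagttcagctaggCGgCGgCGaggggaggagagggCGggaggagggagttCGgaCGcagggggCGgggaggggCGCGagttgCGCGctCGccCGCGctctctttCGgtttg
Lhx1 chr11:84525535-84525784 (- strand): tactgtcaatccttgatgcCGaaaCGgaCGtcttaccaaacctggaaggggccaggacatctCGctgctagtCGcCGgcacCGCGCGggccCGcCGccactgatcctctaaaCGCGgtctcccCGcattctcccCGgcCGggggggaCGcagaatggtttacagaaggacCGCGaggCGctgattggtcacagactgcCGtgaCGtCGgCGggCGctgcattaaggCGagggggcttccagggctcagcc
These windows held 19, 22 and 26 CpG dinucleotides for Nkx1-2, Gsc and Lhx1, and that of Evx1 held 10, against a median of 6 and quartiles of 2 and 16 over 32851 windows of the same length. Their content of G and C was 69.6%, 59.2% and 64.8%, and 49.6% for Evx1, where the median of all windows was 52.4%. The CpG counts of the members that fell thus lay on both sides of the upper quartile, and that of Lhx1 was above it. Methylation was not measured.

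Motifs of factors that act in the streak were searched on both strands of the same windows. They were TAATCC, bound by Gsc-type homeodomains (in 6.25% of all windows), the palindromic TAAT site bound by pairs of paired-type homeodomains (0.463%), TGTNNATT, a core site of the Nodal mediator Foxh1 (10.9%), CAGACA, a Smad site (17.1%), and AGGTGTGA, a T-box site (1.12%). Of the Tcf/Lef sites, CTTTGAA was in 4.46% of all windows, CTTTGAT in 3.21%, CTTTGTA in 3.2% and CTTTGTT in 5.03%. The Evx1 window held 1 match, CAGACA on the strand opposite to the gene, at 112 to 107 bases before the start, and the windows of Nkx1-2, Gsc and Lhx1 held none of these letters. Sequence outside these windows was not examined.

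Of the 5 genes, 4 were lower at day 4 and 1, Lhx1, did not pass the test (limma, 1 probe set per gene, adjusted p under 0.05 over 12285 genes). In the same comparison 10.7% of all genes tested were lower, 11.5% were higher and 22.2% changed in either direction. The falls were unequal. Nkx1-2 kept 14.7% of its day 3 signal, Gsc 31.5%, Mixl1 42.5% and Evx1 70.9%, as ratios of geometric means. Falls of at least 2-fold past the threshold were seen for 3 of the 5 genes and for 2.17% of all genes. The members were chosen with results of these data known, so their share is a description. Fewer cells of a type and less RNA per cell cannot be told apart in RNA from sorted cells in bulk.

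**Figure D1:**
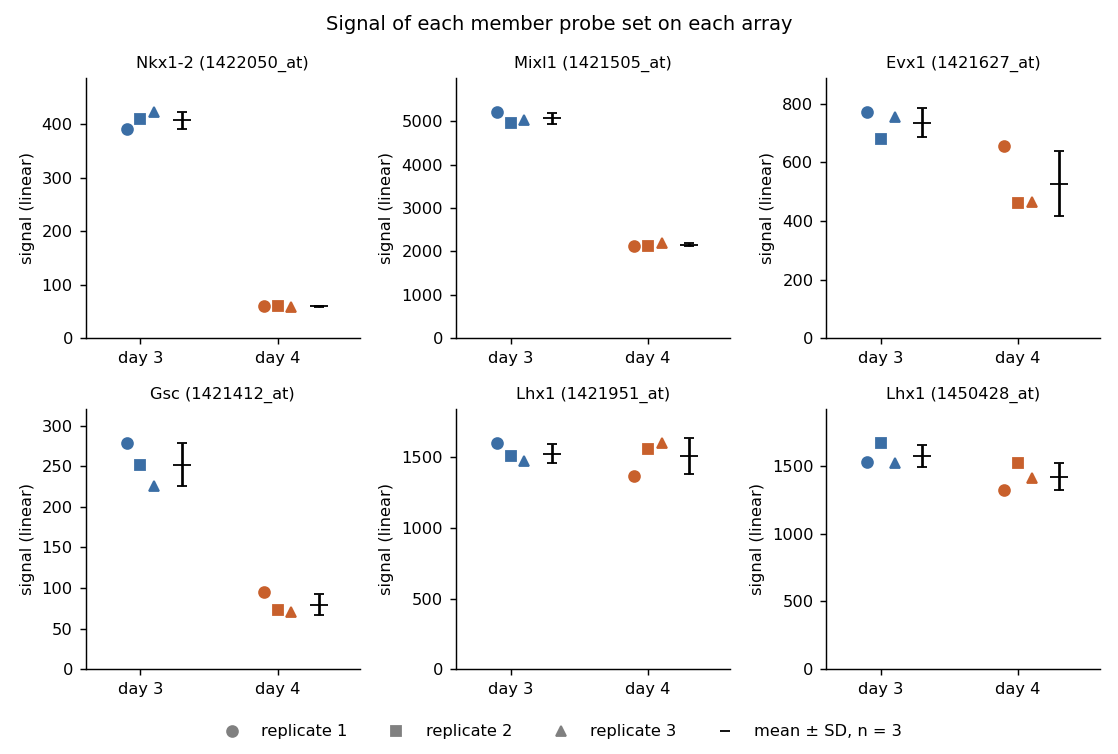
Linear signal of the 6 member probe sets above the filter on each of the 6 arrays, with replicates as symbols and the mean ± SD (n = 3 arrays) beside them; every vertical axis starts at 0. The days are apart for Nkx1-2, Mixl1, Gsc and Evx1, where day 4 replicate 1 (654) lies just under the lowest day 3 array (678), and overlap for both Lhx1 probe sets.

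Nkx1-2, the caudal epiblast gene, gave signals of 391, 410 and 422 on the day 3 arrays and 60.1, 60.6 and 58.9 on the day 4 arrays (probe set 1422050_at). The 3 arrays of each day lay close together and the days were far apart. The mean went from 408 ± 16.0 to 59.8 ± 0.86 (SD over the 3 arrays of a day, here and below), which is -2.77 ± 0.11 on the log2 scale (± SE, here and below, for each log2 change; 95% confidence interval -3.01 to -2.52, limma adjusted p = 1.96e-06), or 6.81-fold lower. Of the 12285 genes tested, 7 had a larger fall, so Nkx1-2 ranked 8 by size of fall and 3 by p. The other 2 probe sets of Nkx1-2 were under the filter level of 13.5 on average and were not tested. Their signals ran from 2.68 to 13.3 (1422049_at) and from 1.19 to 2.08 (1426177_a_at), and the days overlapped for both. The Nkx1-2 result therefore rests on 1 of its 3 probe sets. A mean over all 3 fell under the filter and gave no test.

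Mixl1, a paired-type factor of streak cells that is needed for normal mesendoderm, had signals of 5204, 4970 and 5023 at day 3 and 2133, 2130 and 2191 at day 4. All day 4 arrays lay far under all day 3 arrays. The mean fell from 5065 ± 123 to 2151 ± 34.7, a log2 change of -1.24 ± 0.06 (95% confidence interval -1.36 to -1.11, limma adjusted p = 3.84e-06), or 2.35-fold. The standard deviation of its log2 signal was 0.035 within day 3 and 0.023 within day 4, where the median gene tested had 0.138 and 0.184. That median covers all genes above the filter level of 13.5, and spread was not compared among genes as bright as Mixl1.

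Evx1, the even-skipped type factor of the posterior streak, had signals of 770, 678 and 754 at day 3. At day 4 they were 654, 462 and 464. Day 4 replicate 1 was close to the day 3 arrays and the other two day 4 arrays were lower. The days did not overlap, which was so with lower signals at day 4 for 20.6% of all genes tested. The mean went from 734 ± 49.1 to 527 ± 110, a log2 change of -0.50 ± 0.14 (95% confidence interval -0.81 to -0.18, limma adjusted p = 0.030), or 1.41-fold. Without day 4 replicate 1 the change was -0.66 (adjusted p = 0.00028). The call was lost when any other array was left out (adjusted p = 0.0585 to 0.107) and with eBayes without trend (adjusted p = 0.0868).

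Day 4 replicate 1 differed from the other arrays in its control probe sets for RNA integrity. The Gapdh probe sets gave a ratio of 14.0 between the 3′ end and the 5′ end there, where the remaining arrays had 2.43 to 3.19. For Actb this was 6.71, with 2.77 to 3.84 on the remaining arrays, and its part in the results was not tested beyond leaving it out. Without it, Nkx1-2, Mixl1 and Gsc changed by -2.77, -1.23 and -1.80, against -2.77, -1.24 and -1.67 with all arrays, and Lhx1 by 0.05.

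Gsc, goosecoid, a paired-type repressor of the organizer, had signals of 279, 252 and 225 at day 3 and 94.6, 73.5 and 71.1 at day 4. The lowest day 3 array was far above the highest day 4 array. The mean fell from 252 ± 26.6 to 79.7 ± 12.9, a log2 change of -1.67 ± 0.15 (limma adjusted p = 0.00012), or 3.17-fold lower (95% confidence interval 2.52-fold to 4.01-fold). Its fall ranked 70 of 12285 by size. The replicates of Gsc were more spread than those of Mixl1 or Nkx1-2, with coefficients of variation of 10.6% at day 3 and 16.2% at day 4.

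Lhx1, also called Lim1, a LIM homeodomain factor of the organizer and nascent mesoderm, had signals of 1600, 1508 and 1472 at day 3 and 1367, 1562 and 1600 at day 4 (1421951_at). The other probe set, 1450428_at, gave 1533, 1669 and 1521 at day 3 and 1325, 1524 and 1410 at day 4. In both, the days overlapped and day 4 replicate 1 was the lowest of the 6 arrays. The first changed by -0.02 ± 0.08 (95% confidence interval -0.20 to 0.17, limma adjusted p = 0.899), an interval that spans 13.2% lower to 12.3% higher at day 4. The second, tested among 27026 probe sets of which 17.7% passed and 7.78% passed as lower, changed by -0.15 ± 0.08 (95% confidence interval -0.34 to 0.04, adjusted p = 0.242). A change of the size seen for Mixl1 or Gsc was outside both intervals, while a small change was not.

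**Figure D2:**
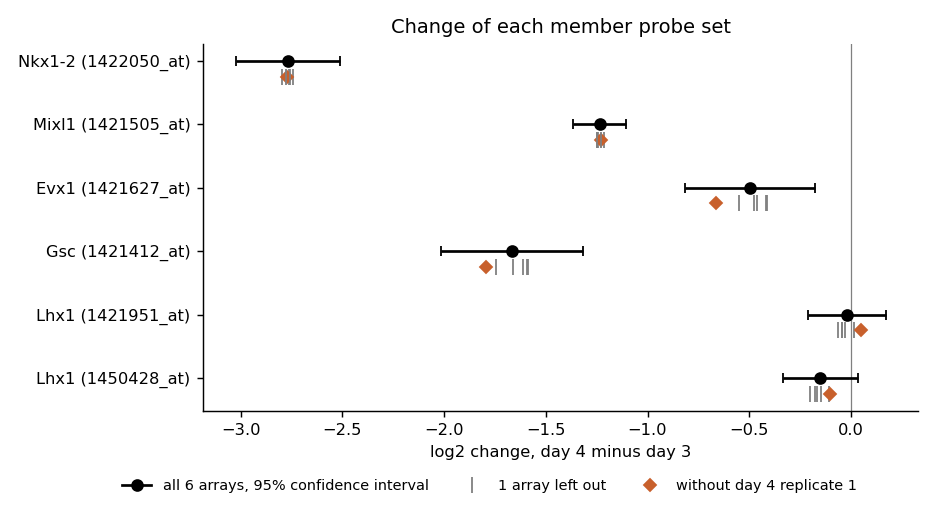
Log2 change from day 3 to day 4 of each member probe set above the filter (black points, with 95% confidence intervals from limma over 6 arrays), and the values with 1 array left out (grey bars, or orange diamonds without day 4 replicate 1). Nkx1-2 at -2.77, Gsc at -1.67 and Mixl1 at -1.24 lie far from 0, Evx1 at -0.50 nearer, and both Lhx1 intervals include 0.

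The sizes of change were compared within arrays, as log2 ratios of 1 member to another, for all 10 pairs. Such a ratio shows unequal change and says nothing of which gene was more abundant. The days did not overlap in 9 of the 10 pairs, each with an exact 2-sided permutation p = 0.1 (0.111 after Benjamini-Hochberg adjustment over the 10 pairs), the smallest that 3 against 3 arrays can give. The 10 ratios come from 5 genes and are not independent, and no matching share was computed for ratios of other genes. For single genes, which are no matched background, the days did not overlap in either direction in 41.4%. The Nkx1-2 to Lhx1 ratio fell by 2.75 on the log2 scale, from -1.90 ± 0.12 to -4.65 ± 0.13, the largest shift of the 10. The Nkx1-2 to Gsc ratio fell by 1.10, from 0.70 ± 0.21 to -0.40 ± 0.22, so the caudal epiblast gene lost more signal than the organizer gene. The Mixl1 to Nkx1-2 ratio rose from 3.64 ± 0.09 to 5.17 ± 0.04.

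Between the organizer genes the Gsc to Lhx1 ratio was -2.52, -2.58 and -2.71 at day 3 and -3.85, -4.41 and -4.49 at day 4. The pair that shares an organizer role therefore parted by 1.65 on the log2 scale. The Gsc to Evx1 ratio, between an anterior and a posterior streak gene, fell by 1.17, from -1.55 ± 0.17 to -2.72 ± 0.07. The Mixl1 to Gsc ratio shifted least among the separated pairs, by 0.43, with day 3 arrays at 4.22 to 4.48 and day 4 arrays at 4.49 to 4.95. With an offset added before log2, the days did not overlap in 8 of the 10 pairs. Those of Mixl1 to Gsc then overlapped (change of 0.38, exact permutation p = 0.2). Without the offset, Evx1 to Lhx1 was the pair whose days overlapped (exact permutation p = 0.2), with -1.06 on day 4 replicate 1 and -1.15 to -0.96 at day 3.

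**Figure D3:**
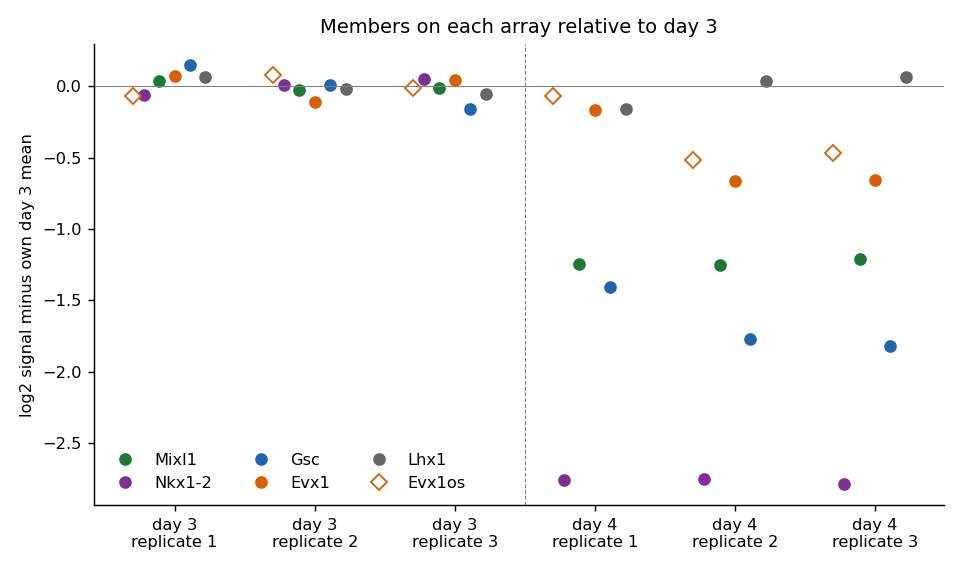
Log2 signal of each member's probe set on each array minus its own mean at day 3, with the antisense gene Evx1os as open diamonds. The day 4 arrays lie at about -2.8 for Nkx1-2, -1.8 to -1.4 for Gsc, -1.2 for Mixl1 and near 0 for Lhx1, while Evx1 and Evx1os are at -0.16 and -0.07 on day 4 replicate 1 and between -0.67 and -0.47 on the other two.

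Evx1 and Lhx1 each have a gene named as their opposite strand RNA, Evx1os and Lhx1os, and both have a probe set of their own. Whether the array separates the strands fully was not tested. These were chosen after their values were seen. Evx1os had signals of 270, 298 and 280 at day 3 and 270, 197 and 205 at day 4. On day 4 replicate 1 it stood just under the lowest day 3 array, as Evx1 did, and it was lower on the other two. It changed by -0.35 ± 0.14 and did not pass (limma adjusted p = 0.0943), but passed without day 4 replicate 1 (-0.49, adjusted p = 0.00422). Lhx1os had 149, 167 and 157 at day 3 and 123, 147 and 125 at day 4, a change of -0.27 ± 0.13 that did not pass (adjusted p = 0.16). Its days did not overlap, whereas those of Lhx1 did.

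The genes with the most similar profile were found by the root mean square difference of mean-centred log2 signals over the 6 arrays, among 11692 other named genes tested. With 2 groups of 3 arrays this measure is led by the size of the day difference, and it is a description with no test. For Nkx1-2 the nearest were Nefl, a neurofilament (0.116), Ckb, brain creatine kinase (0.153), and Alox15, a lipoxygenase (0.239), and 1 gene lay within 0.15. For Gsc they were Crip2, a LIM-domain protein (0.131), Tuba4a, an alpha tubulin (0.138), and Cyb5a, cytochrome b5 (0.148), and 3 genes lay within 0.15. For Mixl1 they were Oxct1, an enzyme of ketone body use (0.040), Atp1b1, a sodium pump subunit (0.049, with a change of 0.19 and adjusted p = 0.856 in limma on another of its probe sets), and Efemp1, a fibulin (0.058), with 59 genes within 0.15. For Evx1 they were Srp19, Commd9 and Tbrg4 (0.041 to 0.044), with 348 genes within 0.15. For Lhx1 they were Rnf146, Gmfb and Sap30 (0.019 to 0.025), with 2368. Few genes fell as far as Nkx1-2 or Gsc, and many had a profile like that of Evx1 or Lhx1. The closest 2 members were Mixl1 and Gsc, at 0.267, and the farthest Nkx1-2 and Lhx1, at 1.38.

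Other genes of the streak, caudal epiblast and tail bud were mostly lower at day 4. Of 26 tested, 15 were lower, 1 was higher and 10 did not pass, with a median log2 change of -0.42, where the median of all genes tested was -0.01 (16 lower and 2 higher without day 4 replicate 1). Of all genes tested, 10.7% were lower and 11.5% higher, shares to set beside this count and the list counts below. The 10 that did not pass included Eomes, at 2741 ± 50.2 and 2583 ± 268. Mesp1, Cyp26a1, Hoxb1 and Wnt5a were also among them (changes of 0.18, -0.07, 0.17 and 0.003). So were Fgf8, Fgf3, Fgf4, Cdx2 and Evx2 (-0.39, -0.005, -0.07, -0.29 and -0.32). Fst, a secreted inhibitor of activin, fell from 1935 ± 114 to 641 ± 57.4. Nodal, the ligand that induces the streak, fell from 1289 ± 67.6 to 479 ± 64.2 (limma adjusted p = 9.26e-06 and 4.30e-05). The zinc finger genes Sp8 and Sp5, of which Sp5 is a direct Wnt target, fell by 1.18 ± 0.12 and 1.09 ± 0.12 (adjusted p = 0.000219 and 0.000302). Tbx3, a T-box factor, was the 1 that rose, from 199 ± 11.6 to 301 ± 13.7 (adjusted p = 0.00352), a call lost with the mean over its probe sets (adjusted p = 0.226). Cdx1, Cdx4 and Hoxb9 were under the filter, and T and Nkx1-1 were not analysed here.

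The genes of the Nodal and activin pathway, which induces Mixl1, Gsc and Lhx1 in the embryo, were split. Of 23 tested, 7 were lower and 4 higher, with a median change of -0.24 (7 and 5 without day 4 replicate 1). This list shares Nodal, Fst and Tdgf1 with the streak list. The feedback antagonists Lefty1 and Lefty2 fell by 2.69 ± 0.17 and 1.75 ± 0.08, and with Fst and Nodal had the smallest p on the list (adjusted p = 1.88e-05 and 3.84e-06). The falls thus included a ligand and 3 secreted antagonists of the pathway. Pmepa1, the coreceptor gene Tdgf1 and the signal transducer Smad2 were lower too (-1.68, -0.24 and -0.39, limma adjusted p = 4.33e-05, 0.00661 and 0.0274). The 4 genes that rose, named after their values were seen, were the coreceptor gene Cfc1, the signal transducer Smad3, the inhibitory Smad7 and the receptor gene Acvr1b. Cfc1 rose from 69.6 ± 4.90 to 182 ± 22.3 (adjusted p = 0.000208), and the others by 0.59, 0.55 and 0.51 on the log2 scale (adjusted p = 0.0081, 0.0143 and 0.036). Pathway activity was not measured.

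LIM homeodomain factors such as Lhx1 act through the adaptor Ldb1 and the single-stranded DNA-binding proteins Ssbp, while Lmo proteins compete for Ldb1 and the ligase Rlim marks it for degradation. Of 9 tested cofactor genes 3 were lower and 0 higher, with a median change of -0.32 (4 and 0 without day 4 replicate 1). Lmo1 fell from 327 ± 56.7 to 55.5 ± 7.39, a change of -2.55 ± 0.17 (limma adjusted p = 1.88e-05). Lmo2 fell by 0.54 ± 0.12 (adjusted p = 0.0107, and 0.053 without day 3 replicate 2). Rlim fell by 0.35 ± 0.10 (adjusted p = 0.0302), but did not pass with day 3 replicate 1, day 3 replicate 2 or day 4 replicate 2 omitted (adjusted p = 0.0881 to 0.11). Ldb1 itself, whose change of -0.32 ± 0.48 is the median of the list, did not pass (adjusted p = 0.678). The day 3 arrays gave it 165, 107 and 125, and the day 4 arrays 39.6, 180 and 160. The low value is that of day 4 replicate 1, and of the other two day 4 arrays, replicate 2 lay above the range of day 3 and replicate 3 within it. Ssbp2 did not pass either (0.28 ± 0.11, adjusted p = 0.101), nor did Ssbp3 (-0.56 ± 0.22, adjusted p = 0.103) or Ssbp4 (0.02). Ssbp3 had its lowest signal, 417, on day 4 replicate 1.

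Other homeobox genes of the members' classes were counted beside the 10.7% lower and 11.5% higher of all genes tested, and the median change of each class was below 0. The medians include genes that did not pass. For the classes of Lhx1 and Evx1 they rest on 3 and 4 genes (-0.41 and -0.31), and the only gene past the threshold in each was higher. Of 16 tested paired-type genes, the class of Mixl1 and Gsc, 3 were higher and 0 lower, also without day 4 replicate 1 (median change -0.15). Prrx2, a mesenchymal homeobox gene, rose from 28.0 ± 3.85 to 97.7 ± 14.5, and Otx1 from 36.8 ± 2.31 to 87.9 ± 1.28 (limma adjusted p = 0.000251 and 0.000606). Pax3, of the early somite and dorsal neural tube, rose by 1.41 ± 0.28 (adjusted p = 0.00715). Phox2a did not pass (-0.78 ± 0.26, adjusted p = 0.0629), but passed as lower with eBayes without trend and with array weights (adjusted p = 0.030 and 0.0437).

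Of 15 tested genes of the NK-like class, that of Nkx1-2, 2 were higher and 2 lower, also without day 4 replicate 1 (median change -0.13). The pluripotency factor Nanog fell by 1.63 ± 0.21 and Vax1, a gene of the ventral forebrain, by 0.76 ± 0.13 (limma adjusted p = 0.000738 and 0.00312). Msx1 and Msx2, known targets of BMP, rose by 0.73 ± 0.12 and 0.73 ± 0.14 (adjusted p = 0.0028 and 0.00552). Both calls were lost with the mean over probe sets, and Msx1 changed by -0.06 (adjusted p = 0.776) when probe sets with suffixes were left out. Of the LIM class, 3 of 11 genes were tested. Isl1, of lateral and cardiac mesoderm, rose from 232 ± 20.1 to 517 ± 7.52 (adjusted p = 0.000107), Lhx6 and Isl2 did not pass, and the other 8 were under the filter. Of 4 tested homeobox genes grouped with Evx1 by class, not by position, Meox1, of the somite, was higher. It had 8.55 ± 4.90 at day 3, under the filter, and 55.3 ± 16.0 at day 4 (limma adjusted p = 0.00237). Meox1 was thus tested only through its day 4 signal. Gbx2, Cdx2 and Evx2, the other even-skipped type gene, did not pass (changes of -0.59, -0.29 and -0.32). Gbx2 lay at the threshold (adjusted p = 0.0515) and passed as lower under 5 alternatives: quantile normalization, median centring, the filter at the 60th percentile, eBayes without trend, and without day 4 replicate 2 (adjusted p = 0.0334 to 0.0462). Without day 4 replicate 1, Cdx2 passed (-0.40, adjusted p = 0.022).

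**Figure D4:**
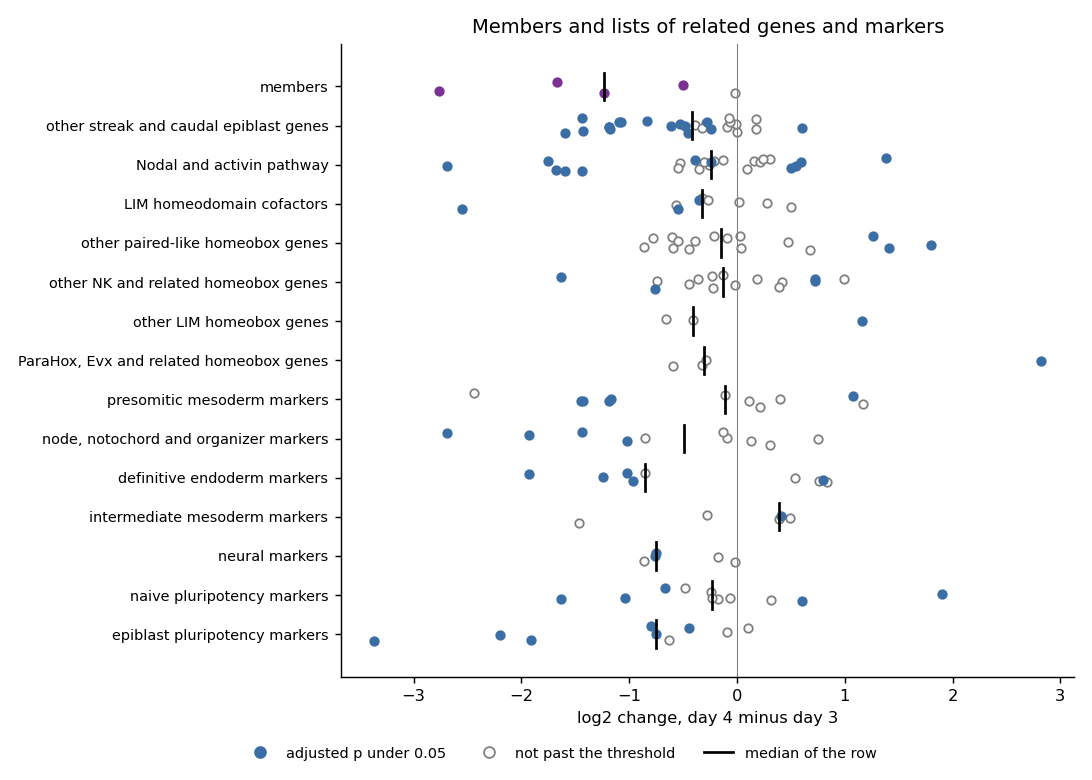
Log2 change from day 3 to day 4 of each tested gene, by list, with the 5 members on top; filled points passed the test (limma adjusted p under 0.05), open points did not, and black bars are the medians of each row. The streak list has 15 of 26 genes filled on the left, while the paired-type list has its 3 filled points on the right.

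Markers of the cells that the reporter gate could hold were read beside the members. Of 11 presomitic mesoderm genes, all above the filter, 1 was higher and 4 lower (1 and 5 without day 4 replicate 1), and their summed signal was 3448 to 3729 at day 3 and 4739 to 5077 at day 4. Msgn1, whose reporter defined the gate, was at 74.6 ± 15.0 and 33.2 ± 7.06 (limma adjusted p = 0.00723). Rspo3, the gene of an R-spondin, rose from 1275 ± 39.3 to 2695 ± 257 (adjusted p = 5.09e-05). Dkk1, a Wnt antagonist, changed by -1.45 ± 0.14 and the ligand gene Wnt3a by -1.43 ± 0.20 (adjusted p = 0.000152 and 0.00125). Fgf17 was lower too (-1.19, limma adjusted p = 0.011). Wnt3a and Fgf17 are also on the streak list and were counted there as lower. The other 6 did not pass. Of these, Dll1, Dll3, Hes7 and Lfng changed by 0.11, 0.22, 0.40 and 1.17, and Tbx6 and Cited1 by -0.11 and -2.44. Summed signals are led by the brightest probe sets, here Rspo3. The higher sum at day 4 goes with the rise of Rspo3 and does not show a rise of the other markers.

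Node, notochord and organizer markers, the tissue of Gsc and Lhx1, were in part lower, like Gsc. Of 10 tested, 4 were lower and 0 higher, also without day 4 replicate 1, and the summed signal was 2914 to 3591 at day 3 and 1172 to 1324 at day 4. The 4 were Lefty1, Nodal, Foxa2 and Sox17, each of which is also on the Nodal list or the endoderm list. The fall of the sum was led by Lefty1 (1215 ± 288 and 187 ± 32.2) and Nodal (1289 ± 67.6 and 479 ± 64.2). Shh, Cer1, Dynlrb2, Hhex, Otx2 and Foxa1 did not pass, with changes of 0.13, 0.31, 0.75, -0.13, -0.09 and -0.85. Foxa2, of node and endoderm, fell from 51.5 ± 3.79 to 25.5 ± 3.01, and Sox17 from 72.2 ± 22.9 to 20.2 ± 10.8 (limma adjusted p = 0.00747 and 0.00956, and 0.051 for Sox17 without day 3 replicate 1). The node genes Chrd, Nog and Foxj1 were under the filter and Noto was not analysed here. Their part in the Gsc result was not tested.

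Of 9 tested definitive endoderm markers, 4 were lower and 1 higher (4 and 3 without day 4 replicate 1), with a summed signal of 871 to 936 at day 3 and 587 to 753 at day 4, and Ttr, Afp and Spink1 under the filter. Gata6 fell by 0.97 ± 0.12 and Cldn6 by 1.25 ± 0.25 (limma adjusted p = 0.000535 and 0.00702). The Gata6 call was lost with the mean over its probe sets (adjusted p = 0.149). Foxa2 and Sox17 were the others that fell. Mean signals were higher at day 4 for Gata4 (83.3 ± 8.15 and 151 ± 49.4), Cxcr4 (73.7 ± 9.90 and 109 ± 29.3) and Trh (50.3 ± 18.1 and 84.3 ± 23.4). Those of Foxa3 were 13.8 ± 8.70 and 20.3 ± 5.47. Except for Gata4, the days of these genes overlapped. The count of higher markers ran from 0 to 3 under the alternatives. Intermediate mesoderm is a later site of Lhx1. Of 5 tested markers 1, Sall1, was higher and 0 lower (1 and 1 without day 4 replicate 1), the summed signal was 712 to 880 at day 3 and 967 to 1030 at day 4, and Osr1, Pax8 and Gata3 were under the filter. Osr1 was at 1.56 ± 0.56 and 1.52 ± 0.32. The Sall1 call was lost without day 3 replicate 1 or 3 (adjusted p = 0.0585 and 0.0841).

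Neural markers matter here because the spinal cord expresses Evx1, Lhx1 and Nkx1-2. Of 5 tested, 2 were lower and 0 higher (1 and 0 without day 4 replicate 1), with a summed signal of 330 to 436 at day 3 and 229 to 243 at day 4. The 2, Nes and Sox2, did not pass in 5 and 4, respectively, of 6 models with an array omitted. Sox1, Neurog1, Neurog2, Olig2, Tubb3, Dcx and Elavl3 were under the filter. Epiblast genes were lower in 6 of 9 tested and higher in 0 (5 and 0 without day 4 replicate 1), with summed signals of 7008 to 7206 and 4543 to 4643. The 4 with the smallest p were L1td1, Fgf5, Pou5f1 and Dnmt3b. Naive pluripotency genes were lower in 3 and higher in 2 of 11 tested, also without day 4 replicate 1, with 1379 to 1494 and 1187 to 1242. They included Nanog and Klf5, which fell, and Prdm14 and Tbx3, which rose. Prdm14 was at 10.3 ± 0.19 at day 3, under the filter, and at 38.6 ± 3.88 at day 4, so it was tested only through its day 4 signal. Klf5 did not pass with day 3 replicate 1 or day 3 replicate 3 omitted (adjusted p = 0.066 and 0.061), nor, at -0.03, with suffixed probe sets omitted (adjusted p = 0.895). Otx2, Utf1 and Lin28a of the epiblast list did not pass (-0.09, -0.63 and 0.11, adjusted p = 0.60, 0.418 and 0.637), and Sox2, counted there too, is the gene with lost calls described among the neural markers. The part of the epiblast genes that fell in the falls of Nkx1-2, Mixl1 and Gsc was not tested.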

How the data were processed

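The deposited values are linear signal intensities of 45101 probe sets on 6 arrays, which the authors made with MAS5, per the submitters' processing notes. Its version and scaling target were not given in the sources used here. Per the labels' protocols, RNA was amplified in 2 rounds before labelling; such amplification is known to shorten products from the 5′ end. Array means trimmed to the central 96% of signals lay between 160.4 and 162.1, so no scaling was added. The number of arrays limits the precision.

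Gene names came from the platform annotation, in which 34958 probe sets had 1 gene symbol, 932 several and 9211 none. A gene was represented by its brightest probe set over all arrays on the log2 scale. Genes above the 40th percentile of probe sets, a signal of 13.5, were tested with limma 3.58.1 in R 4.3.3 (lmFit, eBayes with trend, day as the only term, 2-sided, Benjamini-Hochberg adjustment, threshold 0.05). Each probe set above the filter was also tested on its own. The model was tested on simulated data.

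The members and lists were chosen with earlier results of these data known. All members were named, with up to 4 genes of each list with the smallest p, the 3 nearest profiles of each member, and Msgn1. Promoters came from RefSeq (GRCm38.p6). Protein sequences were not used here. The alternatives were an offset, 2 normalizations, 2 filters, 2 choices of probe set, eBayes without trend, array weights, a replicate block and leaving out each array.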

Additional observations from a re-analysis of the deposited data

How the results depend on the processing

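The falls of Nkx1-2, Mixl1 and Gsc kept their direction and their side of the threshold under every alternative that gave a value: an offset, quantile normalization, median centring, no filter or a filter at the 60th percentile, other choices of probe set, eBayes without trend, array weights, a replicate block and leaving out each array. The mean over probe sets gave none for Nkx1-2, which then lay under the filter. Filters and other choices of probe set otherwise left the log2 changes of these genes as they were, so only the adjusted p could differ there. With arrays left out the falls of Nkx1-2, Mixl1 and Gsc ranged from -2.80 to -2.74, from -1.25 to -1.22 and from -1.80 to -1.59. Lhx1 did not pass under any, at -0.06 to 0.05 with arrays left out, and its other probe set was at -0.20 to -0.10. Evx1 ranged from -0.66 to -0.41 with arrays left out, by gene and by probe set. Its change of -0.50 did not pass with eBayes without trend (adjusted p = 0.0868 by gene and 0.11 by probe set), or among unfiltered probe sets (-0.50, adjusted p = 0.0559), where more probe sets were tested. Genes changed numbered 2729, 1796 with the mean over probe sets, 4312 with array weights, and 1582 to 3530 with arrays left out. The replicate numbers did not pair the samples (correlations of deviations 0.067, 0.011 and -0.00051). With the replicate block 2884 genes changed, and Evx1 passed (adjusted p = 0.0145). Without suffixed probe sets Msx1 changed by -0.063 and Atp1b1 by 0.19, against their main directions, as another probe set then stood for the gene. Ratios without overlap numbered 8 to 10 of 10 pairs. Probe sets near background, such as the dim ones of Nkx1-2, set no limit on a change.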
